A study of Homo sapiens with 8 samples.

Results

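RNA-seq profiles of T47D cells carrying the HA-tagged GATA3 variant TR1 were compared with profiles of T47D cells carrying a control plasmid. The genes tested were those whose normalized count reached 10 in 2 or more of the study's 8 libraries, which kept 14881 of the 28859 gene symbols in the deposited table. T47D is an established human breast cancer line of luminal type that expresses the estrogen and progesterone receptors. The study sequenced total RNA, in libraries made with a kit that keeps the strand, of 4 groups with 2 libraries each, all of them T47D cells, which differed in the plasmid they carried: the control plasmid, or HA-tagged GATA3 in its wild-type, TR1 or TR2 form. The study's title places TR1 and TR2 among truncating GATA3 mutations and raises mesenchymal transformation in vitro as its question. The labels give neither the position of the truncations nor the promoter of the plasmids, and whether replicates are separate cultures is not stated, so p-values measure only the spread between these libraries.

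GATA3 is a zinc finger transcription factor that binds GATA sequences in DNA and maintains luminal cells of the mammary gland. In luminal breast cancer it acts together with the estrogen receptor and the pioneer factor FOXA1, and its gene is frequently mutated there. T47D cells express GATA3 from their own gene as well.

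The factor's core recognition letters are GATA, and the 250 bases before the RefSeq start of a pair of genes that rose with TR1 (GLYATL3 and GABRQ) and a pair that fell (EPHA4 and TMTC1) are printed to show promoters with and without these letters on either side of the comparison. Capitals mark each GATA or its reverse complement TATC, sequences run 5′ to 3′ on the strand of the gene, and coordinates are those of GRCh38.p14. GLYATL3 lies at chr6:49499673-49499922 on the plus strand and GABRQ at chrX:152637645-152637894 on the plus strand. EPHA4 lies at chr2:221574203-221574452 on the minus strand and TMTC1 at chr12:29784760-29785009 on the minus strand, each for the first of 2 listed starts.
GLYATL3: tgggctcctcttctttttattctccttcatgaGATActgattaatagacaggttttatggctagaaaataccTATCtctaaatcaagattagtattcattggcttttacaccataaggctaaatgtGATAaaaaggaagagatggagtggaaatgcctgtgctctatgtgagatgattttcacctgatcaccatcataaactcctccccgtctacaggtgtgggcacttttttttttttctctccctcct
GABRQ: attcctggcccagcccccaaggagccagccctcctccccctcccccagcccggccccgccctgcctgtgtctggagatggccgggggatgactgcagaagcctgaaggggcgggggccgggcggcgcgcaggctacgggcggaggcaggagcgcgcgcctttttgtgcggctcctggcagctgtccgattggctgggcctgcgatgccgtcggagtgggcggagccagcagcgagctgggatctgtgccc
EPHA4: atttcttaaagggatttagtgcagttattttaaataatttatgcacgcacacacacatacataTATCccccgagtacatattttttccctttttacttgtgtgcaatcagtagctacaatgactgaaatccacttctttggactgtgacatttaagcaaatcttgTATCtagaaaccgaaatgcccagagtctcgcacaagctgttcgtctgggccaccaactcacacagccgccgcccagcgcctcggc
TMTC1: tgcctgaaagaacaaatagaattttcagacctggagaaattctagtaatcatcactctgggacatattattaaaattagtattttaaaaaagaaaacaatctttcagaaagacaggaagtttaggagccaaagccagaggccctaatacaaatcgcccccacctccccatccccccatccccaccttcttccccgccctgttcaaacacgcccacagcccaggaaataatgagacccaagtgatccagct
GLYATL3 held 3 matches, EPHA4 held 2, and GABRQ and TMTC1 held 0. A RefSeq promoter was matched for 10 of the 12 genes with the largest rises and for 8 of the 12 with the largest falls. Of these, 5 of 10 and 4 of 8 held GATA or TATC. In the larger sets of genes whose calls held in every setting described later, the letters were in 37.2% of 164 promoters of genes that rose and 31.2% of 125 promoters of genes that fell. These shares were close to the 33.8% of the 9928 promoters matched to genes tested, and the letters were in 45.6% of all 35116 listed promoters of this length. The longer AGATAA or TTATCT, which contains the core, was in 0 of the 18 leading promoters, a number too small to read a share from. In the larger sets it was in 12 of 164 promoters of genes that rose (7.32%) and 4 of 125 of genes that fell (3.2%). It was in 4.42% of those of all genes tested and 9.17% of all listed promoters. A match describes letters in the window and does not show binding.

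The libraries held 13292861 to 19572394 reads on genes, and the TR1 pair stood at 16970383 and 19572394. Mitochondrially encoded genes took 7.11% to 8.5% of the normalized counts. Of 10 luminal markers listed, 9 passed the filter. The test described later called 2 of them higher with TR1 and 2 lower (44.4% called against 10.6% of all genes). The falls were GATA3 and FOXA1. Among the markers, the keratin gene KRT8 was at 49471 and 53706 normalized counts in the control libraries and 69040.3 and 63655 with TR1. The epithelial cadherin gene CDH1 was at 8498 and 7771 in the control and 8377 and 7974 with TR1, and the estrogen receptor gene ESR1 at 3437 and 3272 and, with TR1, at 4035 and 3871. CDH1 did not pass the test (log2 fold change 0.0083, limma adjusted p = 0.947), and its small difference turned negative with median centring (-0.08) or with control replicate 2 (-0.06) or TR1 replicate 1 (-0.03) left out. In bulk RNA, fewer cells of a type and less RNA per cell cannot be told apart.

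GATA3 itself (ENSG00000107485, chromosome 10, 8045378 to 8075203 in GRCh38) had normalized counts of 13726 and 12676 with the control plasmid and 9506 and 8638 with TR1, so both TR1 libraries were below the control pair. It was at 13555 and 13833 with wild type and at 10235 and 10588 with TR2. The log2 fold change of TR1 against the control was -0.54 ± 0.066 (SE), with a limma adjusted p of 0.00149, and it stayed past the threshold in all 20 alternative settings that were run. The counts do not separate the cell's own transcripts from those of the plasmid, and the gene therefore does not check how much TR1 was made.

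The TR1 libraries differed from each other more than the other pairs did. Over 10427 genes with a mean of at least 100 normalized counts in the control and TR1 libraries, the log2 difference of replicate 2 minus replicate 1 had an SD of 0.382 in the TR1 pair. The SD was 0.169 in the control pair, 0.120 with wild type and 0.133 with TR2. TR1 replicate 2 was at least 2-fold above replicate 1 for 496 genes and at least 2-fold below it for 0, whereas each other pair had 0 to 2 such genes in either direction. For 477 of the 496 genes, TR1 replicate 1 was within 1.5-fold of the control mean. The lncRNA gene MALAT1 had 10432 and 12538 normalized counts in the control pair and 10348 and 36071 in TR1 replicates 1 and 2, and POLQ, which encodes a DNA polymerase of end joining, had 121 and 133 in the control and 135 and 414 with TR1. INO80D, a chromatin remodelling subunit gene, was at 82.7 and 86.5 in the control and 80.5 and 289 with TR1, and EXPH5, a Rab27 effector gene, at 126 and 98.7 in the control and 115 and 412 with TR1. In each of these 4 genes the first TR1 library was at or near the level of the control and the second alone was high. Of the 496 genes, 13 (2.62%) were past the threshold described next, against 10.6% of all genes tested. A gap between the TR1 libraries enters the spread that the test uses, so a low share was built into how the 496 were picked. It does not show that the calls were free of this difference.

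These 496 genes had long, GC-poor transcripts. Their longest annotated transcript had a median of 7260 bases (478 of them annotated) and a GC content of 38.3%, against 3757 bases and 48.6% for all genes of that level. In the quartile of genes with the lowest GC content (29.4% to 42.1%), the median of replicate 2 minus replicate 1 was 0.50 in TR1, -0.05 in the control, -0.03 in wild type and 0.10 in TR2. In the other quartiles the TR1 median was -0.06, -0.14 and -0.13. Against the control mean, the lowest quartile had a median of 0.05 in TR1 replicate 1 and 0.54 in TR1 replicate 2. The progesterone receptor gene PGR has a GC content of 41.4% and was at 5899 and 6447 in the control and 7826 and 18201 with TR1, and it did not pass (0.95 ± 0.30, adjusted p = 0.0788). The log2 fold change of PGR was 1.56 when TR1 replicate 1 was dropped and 0.34 when replicate 2 was. Each of these fits leaves 1 TR1 library and takes no spread from the TR1 group, so only the size is given. Removing the trend on GC content and length gave 0.65 (limma adjusted p = 0.0252). PGR also passed with group weights (0.0363), median centring (0.00806) and a replicate block (0.0495), and it missed the threshold in 14 of the 20 alternatives. What set TR1 replicate 2 apart was not tested.

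**Figure D1:**
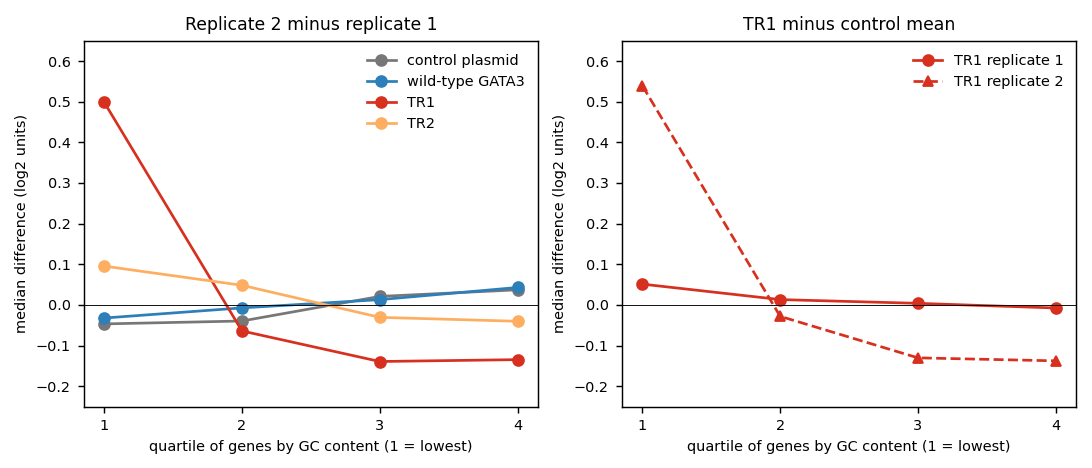
Median log2 difference (vertical axis) by quartile of genes ordered by the GC content of the longest transcript (horizontal axis, 1 = lowest), for replicate 2 minus replicate 1 in each of the 4 groups (left) and for each TR1 library minus the control mean (right). In the lowest quartile the TR1 pair differs by 0.50 and the other pairs by -0.05 to 0.10, and TR1 replicate 2 lies 0.54 above the control there and TR1 replicate 1 lies 0.05 above it.

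Limma was fitted to all 8 libraries with the group as the only term, and a gene was called when its p-value, adjusted over all genes tested by the Benjamini-Hochberg method, was under 0.05. The fit called 1578 of 14881 genes between TR1 and the control (10.6%), 731 higher with TR1 (4.91%) and 847 lower (5.69%). Without adjustment, 4337 genes had a p under 0.05. The control and TR1 libraries did not overlap for 7858 genes (52.8%), among them all the called genes. At least 2-fold changes were called for 309 higher and 161 lower genes, at least 4-fold for 112 and 39, and at least 8-fold for 48 and 12. Part of the large rises was fixed by the filter. It was reached only with the help of the TR1 libraries by 262 genes, 69 of them called higher, and only with the help of the control libraries by 162 genes, 9 of them called lower. Without these genes, 662 were called higher and 838 lower, at least 2-fold 240 and 152, at least 4-fold 60 and 35, and at least 8-fold 20 and 11.

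The fit shares 1 estimate of the spread over 4 groups, although the TR1 pair varied more than the others. With only the 4 control and TR1 libraries, 483 genes were called, 278 higher and 205 lower, and all of them were among the 1578. Leaving out control replicate 1 or 2 lowered the count to 604 or 630. Leaving out wild-type replicate 1 or 2 gave 953 or 949, and TR2 replicate 1 or 2 gave 998 or 1014. The count rose to 5170 without TR1 replicate 1, and then 2970 genes were higher and 2200 lower. With 1 TR1 library left, that fit takes no spread from the TR1 group, so its count rests on the spread of the other groups. Of the 1578 genes, 410 were called in the same direction in every one of the 20 alternative settings that tested them, 224 higher and 186 lower, and 248 of these changed at least 2-fold. Without the genes that reached the filter only with the help of the TR1 or only of the control libraries, 197 of the rises and 186 of the falls remained. These 410 genes are called kept below, and a gene whose call is given with no exception is one of them.

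GC content also moved with the calls. From the lowest to the highest quartile, 1.22%, 6.0%, 9.17% and 10.4% of genes were called lower with TR1, and 4.95%, 4.91%, 4.02% and 4.91% were called higher. After a smooth trend on transcript length and GC content was removed from each library, these shares were 5.92%, 11.5%, 12.6% and 12.1% lower and 6.53%, 6.65%, 9.21% and 12.3% higher, and 1385 of the 1578 genes were called again. The scarcity of falls among GC-poor genes was thus smaller once the trend was removed.

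**Figure D2:**
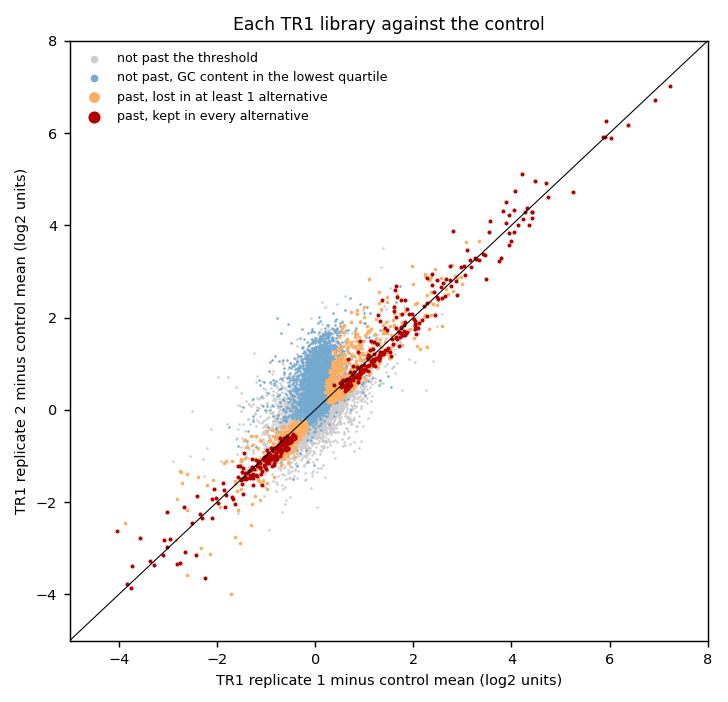
Log2 difference from the control mean in TR1 replicate 1 (horizontal axis) and TR1 replicate 2 (vertical axis) for the 14881 genes tested, 1 point per gene, with the line of equality. The 410 kept genes (red) lie along the line in both directions, while GC-poor genes that were not called (blue) spread upwards in TR1 replicate 2 alone. Kept genes had to be called without either TR1 library, and a gap between these libraries makes a call less likely. The closeness of the kept genes to the line was therefore in part built in.

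The largest rises included genes of secreted proteins. AZGP1, the gene of a zinc-binding glycoprotein of breast and prostate fluids, had 275 and 261 normalized counts in the control pair and 5768 and 5255 with TR1 (log2 fold change 4.36 ± 0.08, limma adjusted p = 3.58e-08). It was at 192 and 184 with wild type and 2269.8 and 2318 with TR2. The TR2 pair thus lay between the control and TR1, and the difference of TR1 from TR2 passed as well (1.26, adjusted p = 0.000188). Its neighbouring pseudogene AZGP1P1 was at 9.66 and 11 and rose to 92.1 and 97, and how reads were shared between these similar sequences is not given in the sources used here. PIP, the gene of prolactin-induced protein and an apocrine marker, was at 121 and 101 in the control and 881 and 959 with TR1 (3.04 ± 0.13, adjusted p = 5.3e-06). CXCL14, a chemokine gene, went from 12.9 and 15.8 to 2283 and 1997 and was at 203 and 192 with TR2 and 0 and 0 with wild type. CP, the gene of the copper carrier ceruloplasmin, was at 74.1 and 68.3 in the control and 504 and 1053 with TR1 (3.34 ± 0.32, adjusted p = 0.000433). Its transcript has a GC content of 39.1% and the second TR1 library was the higher, but both were far above the control, and with wild type CP was at 2.89 and 4.57.

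Genes of a receptor, a channel and a junction were also among them. GABRQ, which encodes the theta subunit of GABA type A receptors, was at 101 and 101 in the control and at 1571 and 1447 with TR1 (3.89 ± 0.10, adjusted p = 1.74e-07), with 54.9 and 58.2 for wild type and 481 and 490.0 for TR2. KCNMA1, the pore-forming gene of the BK potassium channel, was at 25.8 and 19.5 in the control and 193 and 177 with TR1 (2.99 ± 0.20, adjusted p = 4.91e-05). Unlike in the preceding genes, the TR2 libraries at 28.8 and 27.8 were close to the control, and TR1 differed from TR2 by 2.66 (adjusted p = 0.000557). GJA1, which encodes the gap junction protein connexin 43, rose from 35.4 and 35.3 to 244 and 313 (2.93 ± 0.16, adjusted p = 1.96e-05) and was at 152 and 131 with wild type and 182 and 196 with TR2, so it was above the control with every GATA3 plasmid. GLYATL3, a glycine acyltransferase family gene, rose from 39.7 and 50 to 497 and 465. With wild type GLYATL3 was at 4.82 and 6.85, below the control.

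Receptor genes were among the largest falls. EPHA4, an ephrin receptor gene, had 971 and 893 normalized counts in the control pair and 67.9 and 62.7 with TR1 (14.1-fold lower, log2 fold change -3.81 ± 0.096, limma adjusted p = 1.74e-07), with TR2 in between at 365 and 372. GFRA1, which encodes the GDNF co-receptor, was at 253 and 211 in the control and 32 and 21.8 with TR1 (-3.08 ± 0.21, adjusted p = 5.01e-05), and TR2 at 39.6 and 47.3 was not told apart from TR1 (-0.69, adjusted p = 0.226). LIN28A, an RNA-binding protein gene that blocks let-7 processing, was at 412 and 423 in the control and 61.1 and 41 with TR1 (-3.04 ± 0.17, adjusted p = 2.43e-05). Both TR1 libraries were far below the control in these 3 genes, although replicate 2 was lower than replicate 1 in GFRA1 and LIN28A. HSPB8, a small heat shock protein gene, fell from 314 and 357 to 52.4 and 38.5. SHISA2, which encodes an endoplasmic reticulum protein that restrains Wnt and FGF receptors, fell from 425 and 416 to 84.4 and 82 (-2.32 ± 0.093, adjusted p = 3.19e-06), and its TR1 libraries were close to each other. TRIL, a Toll-like receptor accessory gene, fell from 1055 and 1042 to 264 and 259.

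For all of the 12 largest falls but EPHA4, both wild-type libraries lay above both control libraries, on the other side from TR1. TMTC1, an endoplasmic reticulum mannosyltransferase gene, was at 1399 and 1365 with wild type, 646 and 645 in the control, 154 and 165 with TR2 and 44.6 and 46 with TR1. PLK2, a polo-like kinase gene of the stress response, was at 1144 and 1008 with wild type, 398 and 397 in the control, 182 and 190.2 with TR2 and 111 and 92 with TR1 (-1.97 ± 0.12 for TR1 against the control, adjusted p = 3.22e-05). ABCC11, a transporter gene of apocrine glands, fell from 191 and 197 in the control to 44.6 and 50.2 with TR1, with wild type at 239.9 and 227 and TR2 at 111 and 104 (-2.01 ± 0.13, adjusted p = 4.58e-05). In these 3 genes the pairs did not overlap and TR1 was lowest, and the comparisons share the control libraries. TR1 against wild type called 2229 genes (15.0%) and TR1 against TR2 called 181 (1.22%).

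**Figure D3:**
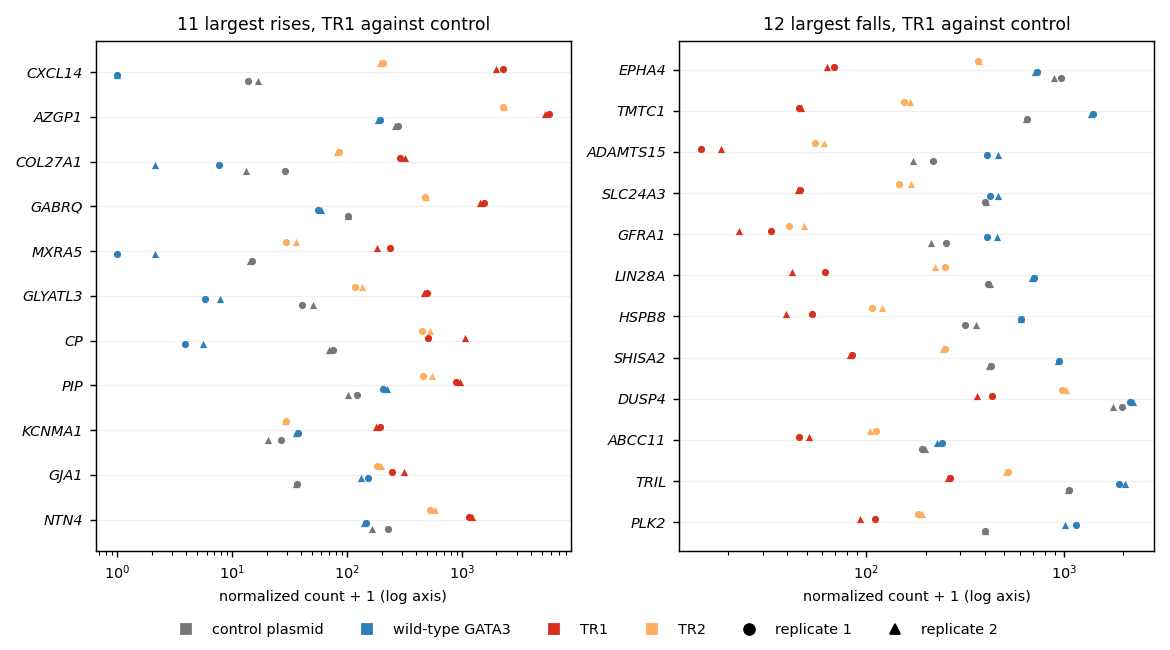
Normalized count plus 1 on a log axis in each of the 8 libraries for the 11 largest rises (left) and the 12 largest falls (right) of TR1 against the control among genes with a mean of at least 100 normalized counts, with colour for the group and shape for the replicate. The TR1 points lie apart from the control points for all 23 genes, which the choice of genes required. TR2 lies between them for all but CP, with KCNMA1 near the control.

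Some genes were nearly silent in the control and gave reads with TR1. Many of them reached the filter only through the TR1 libraries and so had to differ, which makes their number no result. DCN, the gene of the matrix proteoglycan decorin, had 0 and 0 reads in the control libraries and 66 and 70 with TR1, at least 17.8-fold higher against a floor of 3 reads per library. PMP22, a gene of peripheral myelin and tight junctions, had 2 and 1 control reads and 158 and 190 with TR1, a ratio of 91.2 with an exact 95% counting interval of 31.0 to 445, and was at 27.9 and 24.1 normalized counts with TR2. ZMAT4, a zinc finger gene, had 0 and 1 control reads and 58 and 46 with TR1, a ratio of 81.8 (14.4 to 3262). DPYS, which encodes the pyrimidine-degrading enzyme dihydropyrimidinase, had 0 and 0 control reads and 26 and 35 with TR1, at least 7.92-fold higher, and 0 normalized counts in both TR2 libraries. In these genes both TR1 libraries gave similar numbers of reads. TIMP3, a matrix-bound inhibitor of metalloproteases, had 16 and 16 reads with TR1 and 0 in the control, wild-type and TR2 libraries, at least 4.20-fold higher than the control. In the other direction, HDAC9, a histone deacetylase gene, fell from 56.9 and 37.8 normalized counts to 4.85 and 5.02, and MS4A15 from 74.1 and 57.3 to 6.79 and 8.37.

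Among 39 gene lists, transcription factors of the luminal lineage moved in both directions. Of 22 tested, 6 were higher with TR1 and 5 lower (50% called against 10.6% of all genes), with 3 and 3 kept. The median log2 fold change was -0.18 against 0.0165 for all genes. Counts of every list are to be read beside the shares over all genes tested, 4.91% higher and 5.69% lower. The lists were drawn up with earlier results of these data known, so their shares are descriptive. EHF, an epithelial ETS factor gene, rose from 273 and 218 to 825 and 1277, and ELF3, another of that family, from 572 and 567 to 1039 and 915 (0.77 ± 0.086, limma adjusted p = 0.000937). ZNF703, a luminal repressor gene amplified in some breast cancers, was at 173 and 177 in the control, 370.4 and 381 with TR1 and 165 and 181 with TR2 (1.10 ± 0.11 against the control, adjusted p = 0.00045). Its TR2 libraries lay at the control level, and TR1 differed from TR2 by 1.11 (adjusted p = 0.00189). The kept falls were GATA3 itself, TFAP2A, an AP-2 factor gene, from 2851 and 2439 to 1620.1 and 1525, and SPDEF, an ETS factor gene of secretory cells, from 3698 and 3865 to 2706 and 2338. FOXA1 was at 8589 and 7992 in the control and 6984 and 6629.8 with TR1 (-0.28 ± 0.068, adjusted p = 0.0324), but the call was lost in 11 of the 20 alternatives. The limma adjusted p was 0.16 with only the control and TR1 libraries, 0.0936 with group weights and 0.116 without the trend in the spread. It was 0.0688 without the filter and 0.0568 with a replicate block. Leaving out any 1 of the control, wild-type or TR2 libraries also lost the call, with log2 fold changes of -0.336 to -0.232. Of 13 GATA factors and cofactors, LMO4, a LIM-domain cofactor gene, was the 1 that rose, from 1118 and 1160.4 to 3722 and 3670.0, and its call was kept. The 1 that fell, GATA4, was at 341 and 334 in the control and 241 and 217 with TR1 (-0.56 ± 0.10, adjusted p = 0.0109). It missed the threshold with only the control and TR1 libraries (adjusted p = 0.0941). It also missed it with control replicate 1 or 2 left out (log2 fold changes -0.544 and -0.576).

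Keratin and junction genes changed in single members. Of 10 keratins, 3 were higher and 2 lower (50% called against 10.6% of all genes). The 1 kept was KRT15, a basal and progenitor keratin gene, at 66.6 and 89 in the control, 319 and 284 with TR1 and 123 and 80.7 with TR2 (1.95 ± 0.22, limma adjusted p = 0.00101). The 29 epithelial junction genes had 2 higher and 3 lower (17.2% called), with 1 kept and a median of 0.0083. That gene was CLDN1, which encodes a tight junction claudin, at 1451 and 1418 in the control and 535 and 519 with TR1 (-1.44 ± 0.087, adjusted p = 3.13e-05). CLDN1 was also below the control with wild type (345 and 339) and TR2 (640.0 and 727), so its fall was common to the GATA3 plasmids in level. KRT8 rose by 0.36 ± 0.066 on the log2 scale (adjusted p = 0.01), a call that was lost in 5 of the 20 alternatives. The adjusted p was 0.0819 with only the control and TR1 libraries and 0.0667 without the trend in the spread. It was 0.282 with quantile normalization and 0.135 with median centring. Without control replicate 1 the call of KRT8 was lost as well (log2 fold change 0.304). Its adjusted p ranged from 0.00032 to 0.282, and how reads were split between KRT8 and its pseudogenes is not given in the sources used here.

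**Figure D4:**
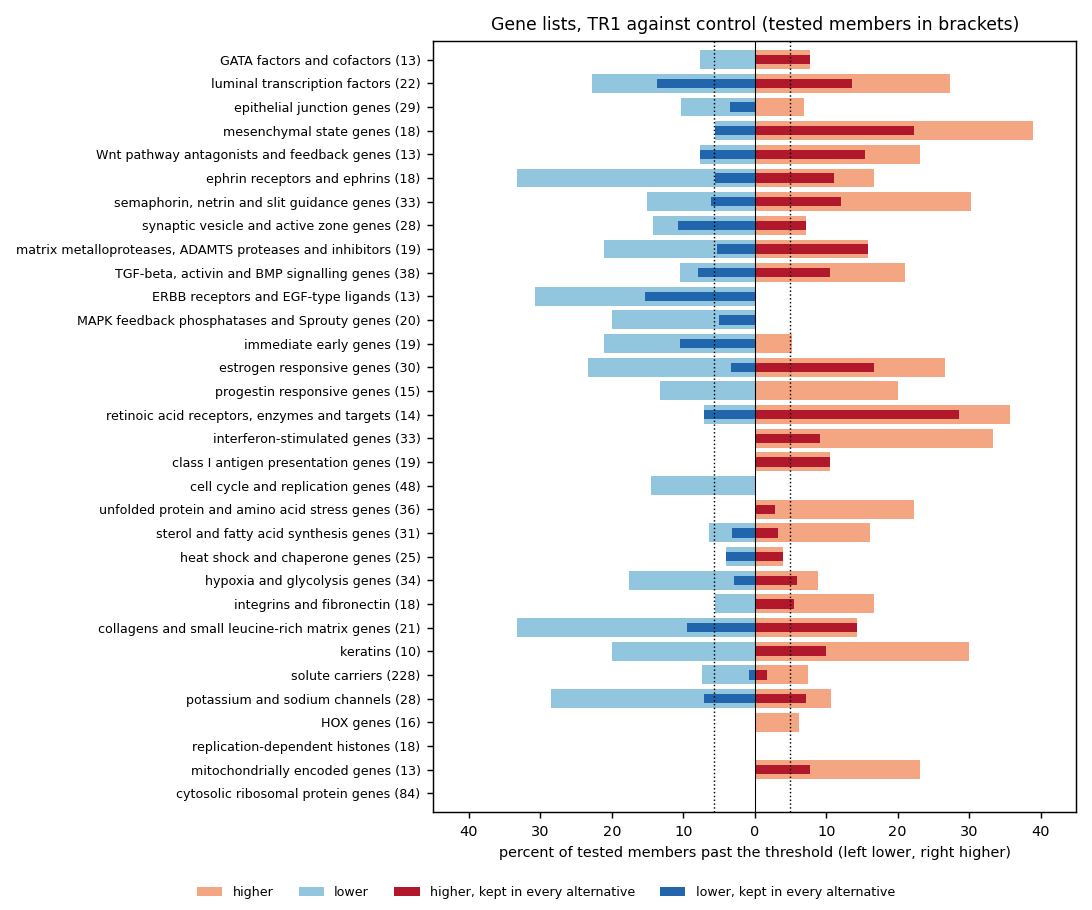
Percent of the tested members of 32 gene lists that were called higher (right) or lower (left) with TR1 against the control, with the number of tested members in brackets and the kept members as dark inner bars. Dotted lines mark the shares over all genes, 4.91% higher and 5.69% lower, and ribosomal protein and histone genes have no called member.

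Retinoic acid genes had more rises than falls. Retinoic acid is made from vitamin A by aldehyde dehydrogenases, acts through nuclear RAR receptors and is degraded by CYP26 enzymes. Of 14 genes tested, 5 were higher (4 kept) and 1 was lower (kept), with a median of 0.096. That is 42.9% called against 10.6% of all genes. ALDH1A3, which encodes a retinaldehyde dehydrogenase, was at 766 and 677 in the control and 2499.5 and 2218 with TR1 (1.71 ± 0.098, limma adjusted p = 2.43e-05), with TR2 at 1129.9 and 1265. RARB, a retinoic acid receptor gene and itself a target of the pathway, was at 15 and 11 in the control and 123 and 129.7 with TR1 (3.20 ± 0.23, adjusted p = 7.69e-05). CYP26A1, the gene of the degrading enzyme, had 2 and 0 control reads and 48 and 51 with TR1, and the ratio was 38.9 (95% interval from counting, 10.5 to 326). RARB, ALDH1A3 and CYP26A1 were thus each above the control in both TR1 libraries. DHRS3, which encodes a retinaldehyde reductase, rose from 448 and 423 to 822 and 747 (0.85 ± 0.10, adjusted p = 0.00128). CRABP1, the gene of a cytosolic carrier of retinoic acid, fell from 84.8 and 79.2 to 13.6 and 14.2 (-2.48 ± 0.21, adjusted p = 0.000205).

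Wnt antagonists and feedback genes included large single changes. Of 13 tested, 3 were higher (2 kept) and 1 was lower (kept), with a median of -0.021. That is 30.8% called against 10.6% of all genes, and SFRP1 reached the filter only through TR1. The kept rises were DACT1, an intracellular Wnt regulator gene, with 0 and 1 control reads against 186 and 187 with TR1, and SFRP1, a secreted Wnt antagonist gene, with 0 and 1 against 127 and 128. Both therefore went from near absence to about the same number of reads in either TR1 library. RNF43, which encodes a ubiquitin ligase that removes Wnt receptors, was at 107 and 80.4 in the control and 33.9 and 35.1 with TR1 (-1.40 ± 0.17, limma adjusted p = 0.00156), and at 261 and 252 with wild type.

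TGF-beta, activin and BMP ligands are secreted factors that act through paired receptor kinases and SMAD proteins, and ligand genes moved in both directions. Of 38 tested, 8 were higher and 4 lower (31.6% called against 10.6% of all genes), with 4 and 3 kept and a median of 0.082. The rises numbered 6 without INHBA and TGFBR2, which reached the filter only through TR1. Among ligands, INHBA, which encodes the activin A subunit, had 2 and 0 control reads and 40 and 65 with TR1, and the ratio was 41.3 (95% interval from counting, 11.2 to 345). GDF15, a stress-induced ligand gene, rose from 38.7 and 40.2 to 172 and 138 (1.94 ± 0.18, limma adjusted p = 0.000397). Falls were called for 3 other ligand genes. INHBB, which encodes the activin B subunit, went from 1221 and 1258 to 517 and 475 (-1.32 ± 0.081, adjusted p = 3.38e-05), BMP4 from 614 and 567 to 294 and 282 and TGFB3 from 1669.8 and 1685 to 918 and 843. On the receptor side, TGFBR2, the type II TGF-beta receptor gene, had 1 and 0 control reads and 19 and 15 with TR1, a ratio of 26.8 (4.49 to 1087). SMAD3, which encodes the signal transducer below this receptor, rose from 305 and 245 to 757 and 675 (1.38 ± 0.13, adjusted p = 0.000429).

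Guidance receptor systems held several of the called genes. Ephrins are membrane-bound ligands of Eph receptor kinases that set cell positions. Of 18 tested genes of both kinds, 3 were higher and 6 lower (50% called against 10.6% of all genes), with 2 and 1 kept. Beside the fall of EPHA4, the ligand gene EFNB2 rose from 18.3 and 14.6 to 58.2 and 71.9 (1.92 ± 0.27, limma adjusted p = 0.00295) and the receptor gene EPHB2 from 39.7 and 47.5 to 93.1 and 96.2 (1.10 ± 0.17, adjusted p = 0.00435). With wild type, EFNB2 was at 63.6 and 39.9 and EPHB2 at 76.1 and 73. With TR2, EFNB2 was at 31.5 and 37.1 and EPHB2 at 75.5 and 66.8. Both genes were thus above the control with every GATA3 plasmid. Of 33 semaphorin, netrin and slit genes, 10 were higher and 5 lower (45.5% called), with 4 and 2 kept and a median of 0.022. Among the rises, 2 were of genes that reached the filter only through TR1. NTN4, a netrin gene of basement membranes, rose from 228 and 163 to 1146 and 1229.8 (2.62 ± 0.15, adjusted p = 2.43e-05), SEMA3E, a secreted semaphorin gene, from 64.4 and 54.9 to 188 and 243, and SEMA3B from 192 and 152 to 324 and 299. The PLXND1 gene, which encodes the plexin receptor of SEMA3E, fell from 844 and 984 to 436 and 436 (-1.06 ± 0.10, adjusted p = 0.000492), and the membrane semaphorin gene SEMA6A from 281 and 275 to 121 and 119.6. Ligand and receptor thus moved in opposite directions for SEMA3E and PLXND1. UNC5C, a netrin receptor gene, had 0 control reads and 11 and 16 with TR1, at least 3.5-fold higher, and stood at 22.2 and 16 normalized counts with wild type.

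**Figure D5:**
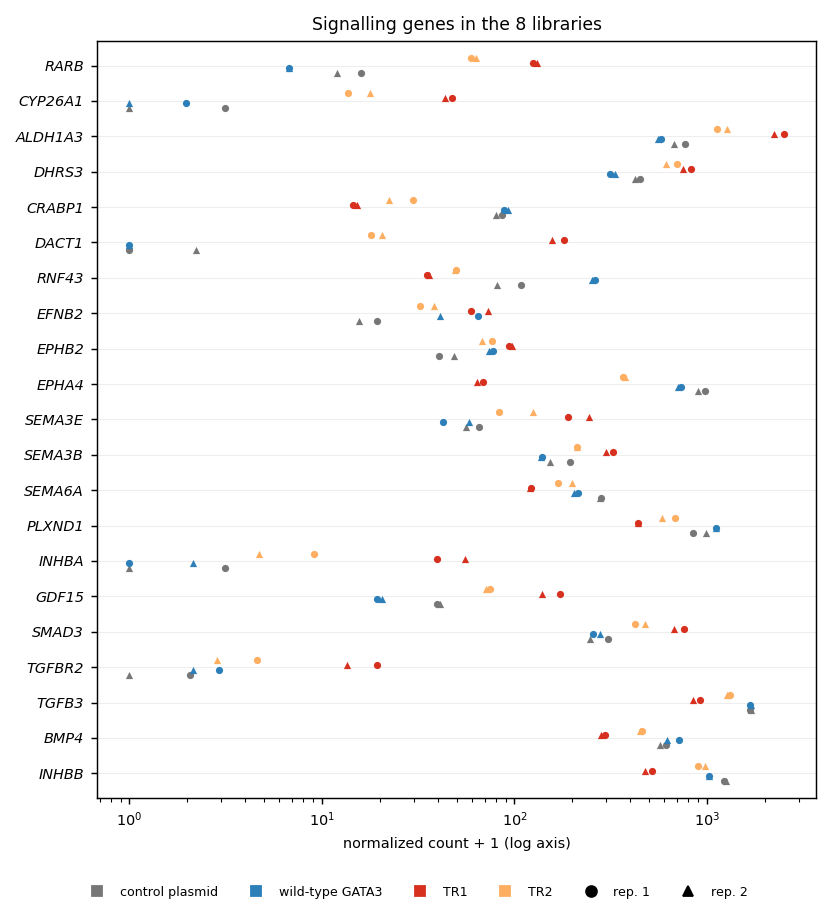
Normalized count plus 1 on a log axis in each of the 8 libraries for 21 kept genes of the retinoic acid, Wnt, ephrin, semaphorin and TGF-beta groups, with colour for the group and shape for the replicate. The TR1 pair is apart from the control pair for every gene shown, as it is for all called genes. It is above the control for 13 genes and below it for 8.

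Genes of vesicle release and ion transport were also called. Of 28 synaptic vesicle and active zone genes, 2 were higher and 4 lower (21.4% called against 10.6% of all genes). Of these, 2 and 3 were kept, and RIMS2 reached the filter only through TR1. The RIM family, which builds the active zone where vesicles fuse, moved both ways. RIMS4 rose from 219 and 232 to 817 and 719 (1.76 ± 0.11, limma adjusted p = 4.2e-05), RIMS2 had 0 control reads and 62 and 91 with TR1, and RIMS1 fell from 73 and 64.6 to 4.85 and 9.20. RIMS1 was at 318 and 310.4 with wild type, above the control. The synaptotagmin gene SYT13 fell from 286 and 246 to 106 and 95.4 and SYT12 from 427 and 488 to 237 and 205, whereas wild type was at 118 and 146 for the first and 1111 and 1109 for the second. Of 28 potassium and sodium channel genes, 3 were higher and 8 lower (39.3% called), with 2 and 2 kept and a median of -0.14. KCNF1, a silent potassium channel subunit gene, rose from 418 and 349 to 1571 and 1347 (1.93 ± 0.12, adjusted p = 3.47e-05), and KCNK15, a background potassium channel gene, from 185 and 209.7 to 372 and 355. KCNS3, a silent subunit gene like KCNF1, fell from 95.6 and 70.7 to 27.1 and 29.3. Of 228 solute carriers, 17 were higher and 17 lower (14.9% called against 10.6% of all genes), with 4 and 2 kept, and 3 of the rises were of genes that reached the filter only through TR1. SLC22A23, an orphan organic ion transporter gene, rose from 585 and 505 to 1704 and 1608 (1.60 ± 0.092, adjusted p = 2.43e-05), and SLC24A3, a sodium and calcium exchanger gene, fell from 397 and 403 to 45.6 and 44.3. SLC6A14, an amino acid importer gene, had 1 and 1 control reads and 36 and 67 with TR1, and the ratio was 40.5 (95% interval from counting, 10.9 to 339), and was at 0 and 1.86 normalized counts with TR2. SLC25A48 had 0 control reads and 19 and 22 with TR1, but its annotated span overlaps the start of the oppositely transcribed CXCL14, and the strand setting of the counting is not given in the sources used here.

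The lists of mesenchymal and matrix genes held changes in both directions. Of 18 mesenchymal state genes, 7 were higher and 1 was lower (44.4% called against 10.6% of all genes), with 4 and 1 kept and a median of 0.080. The rises numbered 4 without the 3 genes that reached the filter only through TR1 (COL3A1, SPARC and MMP2). ACTA2, the smooth muscle actin gene, was at 1008 and 943 in the control, 804 and 912 with wild type, 1042 and 955 with TR2 and 3342 and 3001 with TR1 (1.70 ± 0.094 against the control, limma adjusted p = 2.1e-05). TR1 alone lay apart here, and its difference from TR2 was 1.67 (adjusted p = 0.000114). The other kept rises of this list, COL3A1, SPARC and MMP2, had 0 or 1 control reads in all and at most 29 reads in a TR1 library. VIM, the vimentin gene, was at 8.59 and 7.31 in the control and 44.6 and 36 with TR1 (2.20 ± 0.39, adjusted p = 0.00939). That call did not hold with group weights (adjusted p = 0.0579) or with control replicate 2 left out (log2 fold change 2.1). Of 21 collagens and leucine-rich matrix genes, 3 were higher and 7 lower (47.6% called), with 3 and 2 kept and a median of -0.11. Without genes that reached the filter only through TR1 or only through the control, 1 was higher and 6 were lower. COL27A1, a fibrillar collagen gene, rose from 27.9 and 12.2 to 287 and 322 (3.97 ± 0.55, adjusted p = 0.00291), COL4A6, a basement membrane collagen gene, fell from 92.4 and 59.7 to 19.4 and 24.3, and COL1A1 fell from 377 and 379 to 236 and 205. MXRA5, a matrix remodelling gene outside these lists, rose from 14 and 13.4 to 234 and 183 (3.82 ± 0.37, adjusted p = 0.000478). The collagen calls thus went both ways. Of 19 metalloproteases and inhibitors, 3 were higher (3 kept) and 4 lower (1 kept), which is 36.8% called. But MMP2 and TIMP3 reached the filter only through TR1, which leaves 1 rise. MMP11, the stromelysin 3 gene, rose from 255 and 266 to 475 and 433, and ADAMTS15, a proteoglycan-cleaving protease gene, fell from 217 and 172 to 13.6 and 17.6. Among 18 integrin and fibronectin genes, ITGB6, whose product activates latent TGF-beta, was the 1 kept call (20.4 and 26.8 in the control and 65.9 and 79.5 with TR1).

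In the ERBB and MAPK feedback lists all calls were falls. Of 13 ERBB receptors, regulators and ligands, 0 were higher and 4 lower (30.8% called against 10.6% of all genes), with 2 kept and a median of -0.11. AREG, the amphiregulin gene and a ligand of the EGF receptor, was at 482 and 517 in the control and 240.4 and 216 with TR1 (-1.13 ± 0.096, limma adjusted p = 0.000223). LRIG3, a gene of membrane proteins that act on ERBB receptors, fell from 1524 and 1453 to 763 and 732 (-0.99 ± 0.084, adjusted p = 0.000224). Both genes were also below the control with TR2, AREG at 279.6 and 277 and LRIG3 at 859 and 978. With wild type, LRIG3 was below the control as well (976 and 1017), whereas AREG was above it (722 and 716). Of 20 MAPK feedback genes, 0 were higher and 4 lower (20% called). The 1 kept was DUSP4, a phosphatase gene of nuclear MAP kinases, from 1961 and 1771 to 434 and 364. Of 19 immediate early genes, 1 was higher and 4 were lower (26.3% called), with 0 and 2 kept. The 2 kept falls were JUN (559 and 524 to 298 and 268) and CYR61 (418 and 388 to 238 and 234).

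Estrogen responsive genes were called in both directions. Of 30 tested, 8 were higher and 7 lower (50% called against 10.6% of all genes), with 5 and 1 kept and a median of 0.11. IRS1, an adaptor gene of insulin and IGF receptors, rose from 282 and 288 to 575 and 527 (0.95 ± 0.10, limma adjusted p = 0.000713), WISP2, a secreted CCN family gene, from 97.7 and 81.7 to 223 and 206, and STC2, a secreted stanniocalcin gene, from 5041 and 5046 to 7587 and 7189. FKBP4, which encodes a co-chaperone of steroid receptors, fell from 10758 and 11913 to 7745 and 7451 (-0.58 ± 0.066, adjusted p = 0.00105). SGK3, a kinase gene, rose from 51.5 and 42.7 to 119 and 179.9, has a GC content of 38.1%, and kept its call with the GC trend removed. The estrogen receptor gene ESR1 did not pass (0.24 ± 0.077, adjusted p = 0.0843) and missed the threshold in 19 of the 20 alternatives. The exception left out TR1 replicate 2 and so held 1 TR1 library, with a log2 fold change of 0.27. Of 15 progestin responsive genes, 3 were higher and 2 lower (33.3% called), and 0 were kept.

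Interferon-stimulated genes were called upwards only. Of 33 tested, 11 were higher and 0 lower, with 3 kept and a median of 0.47, which is 33.3% called against 10.6% of all genes. Both TR1 libraries were above both control libraries for 23 of them and below for 2, where 52.8% of all genes did not overlap in either direction. IFI6, which encodes a mitochondrial and reticulum membrane protein, was at 302 and 284 in the control and 665 and 625 with TR1 (1.14 ± 0.12, limma adjusted p = 0.000611), and at 161 and 171 with wild type. MX1, an antiviral GTPase gene, rose from 635 and 623 to 923 and 967 (0.59 ± 0.084, adjusted p = 0.00324) and ISG15, a ubiquitin-like modifier gene, from 60.1 and 47.5 to 143 and 127. With TR2, MX1 was at 690.4 and 622, close to the control. Of 19 class I antigen presentation genes, 2 were higher, both kept, and 0 lower, a share of 10.5% near the 10.6% of all genes. HLA-F, a non-classical class I gene, rose from 53.7 and 68.3 to 177 and 137, and its similarity to other class I genes makes its count uncertain. Of 8 chemokine and receptor genes tested, 3 were higher and 1 was lower (50% called), and CXCL14, CXCR4 and CXCL12 were the rises, all kept. The fall was in CCL28, a mucosal chemokine gene, from 25.8 and 13.4 to 5.82 and 1.67 (-2.20 ± 0.55, adjusted p = 0.0372). That call did not hold with only the control and TR1 libraries (limma adjusted p = 0.114) or with group weights (0.0892). Nor did it hold without the trend in the spread (0.0763), without the filter (0.0774) or with voom weights (0.0513). It was also lost when control replicate 1 or 2, wild-type replicate 1 or 2, TR1 replicate 2 or TR2 replicate 1 was left out. In those fits the log2 fold change was -2.65 to -1.53. CXCR4, the receptor gene of CXCL12, rose from 10.7 and 15.8 to 66.9 and 56.9 (2.16 ± 0.23, adjusted p = 0.000736), and CXCL12 from 3164 and 3463 to 4769 and 4648. CXCR4 was at a like level with wild type (55.9 and 63.9) and TR2 (65.6 and 65).

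Calls in the cell cycle list were all falls. Of 48 genes, 0 were higher and 7 lower (14.6% called against 10.6% of all genes), 0 were kept, and the median was -0.14. Of 36 unfolded protein and amino acid stress genes, 8 were higher and 0 lower (22.2% called). The 1 kept was DDIT4, which encodes an inhibitor of mTOR, from 717 and 629 to 1880.0 and 1692 (1.41 ± 0.10, limma adjusted p = 8.14e-05). Among 25 heat shock and chaperone genes, HSPB1, a small heat shock protein gene, rose from 13992 and 14965 to 22267 and 20714 (0.57 ± 0.065, adjusted p = 0.00105) while its relative HSPB8 fell, and these were the only calls of that list. Of 34 hypoxia and glycolysis genes, 3 were higher and 6 lower (26.5% called), with 2 and 1 kept, and STC1 reached the filter only through TR1. STC1 had 0 control reads and 61 and 71 with TR1, and PFKM, a phosphofructokinase gene, fell from 3518 and 3430.1 to 2409 and 2103. Of 31 sterol and fatty acid genes, 5 were higher and 2 lower, with FADS1, a desaturase gene, up (1994 and 2042 to 3144 and 2774) and FDFT1, the squalene synthase gene, down (7471 and 7829 to 5746 and 5190.0) as the kept calls. The 84 ribosomal protein genes and the 18 histone genes had 0 calls in either direction, with medians of -0.045 and 0.12. Of 13 mitochondrially encoded genes, 3 were higher, with MT-ND1 kept (24184 and 24179 to 31340.0 and 35327), and the second TR1 library also had the largest mitochondrial share (8.5%).

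Markers of cell types other than luminal epithelium were read in all libraries. The endothelial and leukocyte lists had 0 members past the filter, and each of their 9 measured genes had at most 8 reads in any control or TR1 library. The basal keratin genes KRT5, KRT14 and KRT17 had at most 2 reads, and TP63, a basal transcription factor gene, went from 47 and 29 reads to 73 and 74 without passing (adjusted p = 0.128). Of 5 basal and myoepithelial genes tested, ACTA2 was higher and kept, and CNN1, a smooth muscle calponin gene, fell from 11 and 13 reads to 0 and 2, but did not pass with control replicate 2 left out (adjusted p 0.0725, range 0.00129 to 0.0725). Of 5 fibroblast genes tested, DCN and COL3A1 were higher, both of which reached the filter only through TR1, and COL1A1 was lower. All 3 were kept, while COL1A2, a defining fibroblast collagen gene, had 0 reads in the control and TR1 libraries. LUM, the lumican gene, had 0 reads in the control and 8 and 33 in TR1 replicates 1 and 2, and did not pass the filter. The summed fibroblast markers were at 468 and 425 normalized counts in the control libraries and 396 and 402 with TR1. Most of that sum was COL1A1, at 377 and 379 in the control and 236 and 205 with TR1. The median log2 fold change of the 5 fibroblast genes tested was 0.26, so the sum does not stand for the other members. Of 2 adipocyte genes tested, 0 were higher and 1 was lower, not kept. The part of such cells in the changes was not tested.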

How the data were processed

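RNA-seq of 8 T47D libraries, 2 in each of 4 groups, was deposited by the authors as 1 table of log2 values per gene symbol. Per the submitters' processing notes, reads were handled with TopHat and HTSeq on hg38, with no versions given. Each deposited log2 value is log2 of a normalized count plus 1: after this was undone, 100% of the values of every library were whole multiples of 1 step within 0.01, which gave the reads behind each gene. Counting error alone is covered by intervals and floors, with 3 reads per library as the floor. The table has 0 columns that match no sample.

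Groups were taken from the plasmid labels. Genes whose normalized count reached 10 in 2 or more of the 8 libraries entered a limma 3.58.1 fit (R 4.3.3) on the deposited log2 values, with a mean-variance trend, the group as the only term, two-sided p-values and Benjamini-Hochberg adjustment over all genes tested (threshold 0.05, 4 residual and 4.695 prior degrees of freedom). The procedure was tested on simulated data whose noise was independent between genes. Those data held no shift of GC-poor genes in TR1 replicate 2, so they do not show how the calls behave under it. Fold changes are on the log2(normalized count + 1) scale and understate those of low genes. Lengths and GC contents come from GENCODE 29 on GRCh38, matched by symbol for 12860 of the genes tested (86.4%), and promoters from RefSeq on GRCh38.p14.

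The genes, the gene lists and the rule for naming genes were chosen with earlier results of these data known. The rule takes GATA3, the 12 largest rises and falls with a mean of at least 100 normalized counts and no overlap, the 8 largest rises from a control mean under 3 and the 8 largest falls to a TR1 mean under 10, up to 4 called members of each list per direction, the 8 genes furthest apart in either direction between the TR1 libraries, and fixed markers. Only part of these genes is described, picked with the values and the alternatives in view, mostly among calls kept in every alternative. Some genes that the rule takes are not reported here. Another 12 genes, among them SMAD3, DHRS3, MX1 and AZGP1P1, lie outside the rule and were chosen after their values were seen. Replicate numbers were not used to pair the samples in the main fit. Deviations of same-numbered libraries correlated between -0.405 (control and TR2) and 0.368 (TR1 and TR2), and whether a batch lies behind these values was not tested.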

Additional observations from a re-analysis of the deposited data

How the results depend on the processing

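The number of genes called between TR1 and the control was 1578 and went to 483 with only the control and TR1 libraries, 840 with group weights (0.375 for TR1 and 1.064 to 1.733 for the others) and 604 to 5170 with each library left out in turn. Genes called higher went from 731 to 278, 432 and 326 to 2970 in these settings and to 1112 with the length and GC trend removed, and genes called lower from 847 to 205, 408 and 267 to 2200. Among the settings that leave out 1 library, the count was lowest without control replicate 1 and highest without TR1 replicate 1. A 2-fold minimum left 470 genes, 309 higher and 161 lower. With a replicate block 1248 genes were called, 635 higher and 613 lower, and with voom, added after the data were seen, 1463. Quantile normalization and median centring gave 1721 (680 higher, 1041 lower) and 1889 (816 higher, 1073 lower). Of 199 named genes that were called, 110 held in all alternatives. Reversals were all in genes that were not called. CDH1 was at -0.084 on the log2 scale with median centring and between -0.056 and 0.073 with each library left out, PRKAR2A-AS1 between -0.44 and 0.19, PECR between -0.52 and 0.080, PXDC1 between -0.075 and 0.51, INO80D between -0.071 and 1.76, MALAT1 between -0.14 and 1.66, RLF between -0.062 and 1.70, MIR6087 between -0.37 and 1.38 and CRYBG3 between -0.024 and 1.69. The turn came without TR1 replicate 2 in all of these but CDH1 and PXDC1. The causes were not tested. The planned edgeR, DESeq2 and TMM alternatives were not run, and voom on the recovered reads was the 1 model of counts fitted. Depth limits low genes, since the floor of 3 reads stands for 2.51 to 3.66 normalized counts.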
